A study of Danio rerio with 12 samples.

Results

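The genes described here encode the proteins of the cytosolic ribosome. They were taken by name: zebrafish genes with an rpl or rps symbol followed by a number and set suffix letters, and the genes of the acidic stalk. Kinases and binding proteins with similar names and rpl22l names were left out. The rule allowed for rpsa but no identifier carried that symbol, and it missed some other symbols, such as rps27.2. The rule found 78 of the 31462 gene identifiers in the tables, of which 41 encode proteins of the large subunit, 33 proteins of the small subunit and 4 proteins of the stalk (RPLP0, RPLP1, rplp2 and rplp2l). Symbols are written as the gene name table gives them, in capitals where it does not say which zebrafish copy is meant. Where a pair of identifiers shares a symbol, the final digits of the Ensembl identifier are attached, as in RPL5_15862. All 78 genes passed the filter on low counts in every comparison, and 75 of them held at least 100 counts in each library.

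The libraries were made from poly-A RNA of AB strain embryos, with 30 to 50 embryos pooled in each. Wildtype (wt) embryos were compared with maternal-zygotic (MZ) smchd1 null embryos, homozygous for the out-of-frame allele lof1, at 4 to 8 cells and at the sphere stage. The earlier embryos hold the transcripts left by the mother, and by the later stage the embryonic genome is active. Each of the 4 groups held 3 libraries, and the mutant groups rest on a single allele. The labels do not say whether replicates came from separate clutches, so p-values measure only the spread between these samples. In whole embryos, fewer cells of a type and less RNA per cell cannot be told apart, and in poly-A selected RNA neither can the amount of an mRNA and the share of it that carries a tail.

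A ribosome is built from ribosomal RNA and one copy of most of these proteins, so their genes are usually expressed together and at high levels. In vertebrates their mRNAs begin with a terminal oligopyrimidine (TOP) tract, through which the mTOR pathway controls how far they are translated. The egg stores ribosomes and the mRNAs for their proteins, and the early zebrafish embryo lives on that store until its own genome is switched on.

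Total expected counts ranged from 7829742 in MZ sphere replicate 1 to 23681822 in wt 4- to 8-cell replicate 1. A gene for ribosomal RNA, zgc:158463, took 3.98% of the counts in MZ sphere replicate 1 and at most 0.398% elsewhere. It was left out of the genes tested, except in an alternative interaction fit that kept it. The smchd1 transcript was at 35.1 to 64.9 TPM (a level per length of transcript, scaled to the same total in each library) in wt libraries and at 0.66 to 1.88 TPM in MZ libraries, with log2 fold changes by genotype of -5.17 (SE 0.15) at the 4- to 8-cell and -5.95 (SE 0.23) at the sphere stage, as the labels require. The 20 measured markers of the blastula after zygotic activation summed to 12.1 to 19.6 TPM in the 4- to 8-cell and to 1279 to 2130 TPM in the sphere libraries. Blood markers summed to at most 3.48 TPM and liver markers to at most 1.43 TPM in any library. The 8 ovarian follicle markers found summed to 43.1 to 96.2 TPM, with 1 or 2 of them above 1 TPM in each library.

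Ribosomal protein mRNAs made up a small part of the poly-A RNA. Together they held 1.72 to 2.19% of all TPM in the 12 libraries. Of all counts they held 0.635 to 0.718% in wt 4- to 8-cell and 0.817 to 0.897% in wt sphere libraries, and 0.723 to 0.775% and 0.820 to 0.907% in MZ libraries, so that by counts the stages did not overlap in either genotype. The median of their mean levels was 240.0 TPM, and 71 of the 78 genes lay between 100 and 650 TPM. By TPM, 59 of them ranked among the 1000 highest genes in wt 4- to 8-cell embryos and 65 in wt sphere embryos, against 62 and 68 in MZ embryos.

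The genes with the highest mean TPM were RPL12, which sits at the base of the stalk (644 TPM), RPS12 (599 TPM), rpl32 (533 TPM), rps20 (489 TPM) and RPL39, one of the smallest ribosomal proteins (461 TPM). At the other end stood rps27l, a relative of RPS27 (34.3 TPM), RPL36 (56.4 TPM) and RPL5_20197, the less abundant of a pair of copies (65.0 TPM). The spread over the 78 genes was therefore wide only at its lower edge. Levels per length are sensitive to effective length for short transcripts, and the median effective length of these genes was 491 bases against 1852 bases for genes with a mean count above 10.

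The first question was how the summed level moved between stages and genotypes. In TPM the sum over the 78 genes was 21073, 21094 and 19258 in the wt 4- to 8-cell libraries and 17177, 19365 and 20967 in the wt sphere libraries. In the MZ libraries it was 21883, 21611 and 21826 at the 4- to 8-cell and 18366, 20792 and 21009 at the sphere stage. The wt groups overlapped, and the 3 MZ sphere libraries all lay below the 3 MZ 4- to 8-cell libraries.

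Counted without regard to length, the same sum moved the other way. In CPM, the counts as a share of the library after TMM scaling (a factor per library from genes that differ little), it was 6544 ± 493 in wt 4- to 8-cell and 9353 ± 520 in wt sphere embryos, and 7091 ± 303 and 8805 ± 579 in MZ embryos (SD, n = 3 each). The ratio of sphere to 4- to 8-cell means was 1.43 in wt and 1.24 in MZ by CPM, 1.26 and 1.16 by CPM with no scaling factor, and 0.936 and 0.921 by TPM. The direction of the summed level between stages was thus set by the unit.

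**Figure D1:**
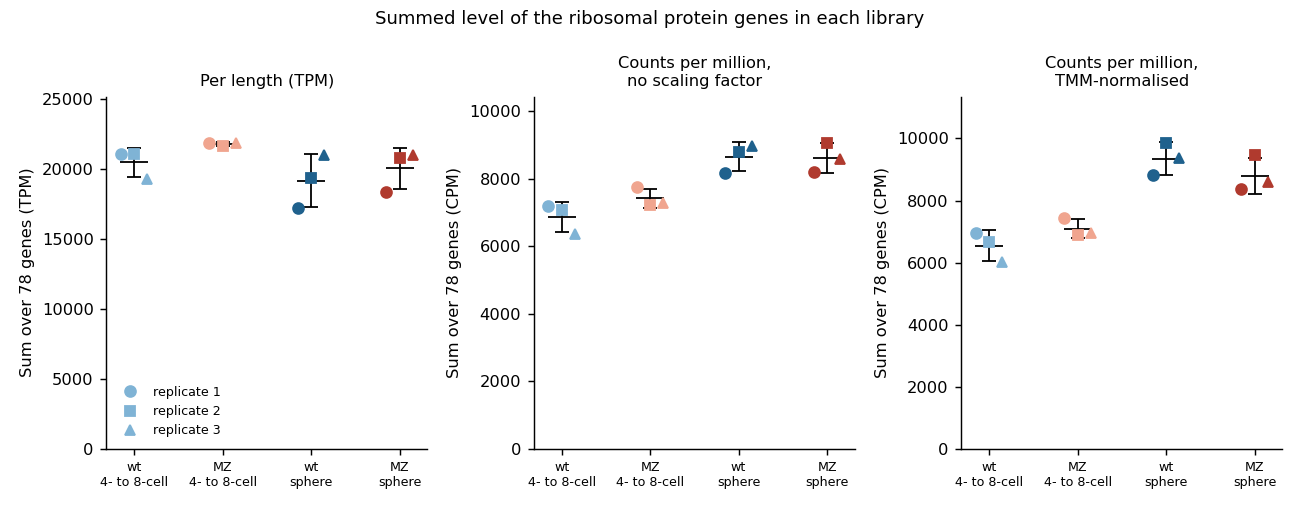
Sum over the 78 ribosomal protein genes in each of the 12 libraries, in TPM (left), in CPM with no scaling factor (middle) and in TMM-normalised CPM (right). Symbols are libraries, and horizontal marks and bars are the group mean and SD (n = 3). Sphere libraries lie above 4- to 8-cell libraries in both CPM panels, while in TPM the group means at the sphere stage are the lower ones.

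Library composition also differed between stages. The effective length weighted by TPM was 1492 to 1622 bases in the 4- to 8-cell libraries and 1160 to 1304 bases in the sphere libraries, and the 10 genes with the most TPM took 3.67 to 5.83% of it at the earlier and 5.14 to 9.82% at the later stage. The difference between transcript length and effective length, which follows the mean fragment length, was 146 bases in wt sphere replicate 1 and 158 to 165 bases in the other libraries, and wt sphere replicate 1 had the lowest TPM sum of all. The part of library composition and fragment length in these sums was not tested.

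Gene by gene, the stage comparison asked which ribosomal protein mRNAs differed between the maternal store and the blastula. It used the edgeR quasi-likelihood test on counts in 1 fit to all 12 libraries, with p-values adjusted over all genes, and a gene was called at an adjusted p under 0.05. On TMM-normalised counts most of the genes rose in wt embryos relative to the other genes tested: 57 of 78 were higher at the sphere stage, where 24.7% of all genes tested were higher, and 2 were lower, where 23.6% were lower. In CPM the 3 sphere libraries lay above the 3 earlier ones for 59 genes (27.8% of all genes) and below them for 3 (27.7%), and in TPM for 8 (11.7%) and 23 (52.4%). The median log2 fold change of the 78 genes was 0.51, against -0.01 for all 16595 genes tested. The large subunit gave 30 of 41 higher with a median of 0.48, the small subunit 26 of 33 higher with a median of 0.57, and the stalk 1 higher and 2 lower of 4.

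In MZ embryos 40 of the 78 genes were higher at the sphere stage, where 20% of all genes tested were higher, and 3 were lower, where 19.6% were lower, with a median log2 fold change of 0.34 against 0.00 for all genes. In CPM the sphere libraries lay above the earlier ones for 55 genes (27.9% of all genes) and below them for 3 (28.7%), and in TPM for 6 (13.7%) and 22 (49.5%). The median was 0.34 for the large and 0.36 for the small subunit. Leaving out 1 library at a time gave 50 to 59 called genes in wt and 23 to 44 in MZ, the 23 without MZ sphere replicate 2. Over all genes these fits called 7084 to 8071 in wt and 4889 to 6871 in MZ, the 4889 also without MZ sphere replicate 2. Leaving out wt sphere replicate 1 and MZ sphere replicate 1, the libraries with short fragments and with ribosomal RNA, gave 57 higher and 2 lower in wt and 42 higher and 2 lower in MZ. That fit called 3769 of 16609 genes higher and 3585 lower in wt, and 3078 and 3020 in MZ. Higher in both genotypes were 38 genes, where 15.5% of all genes tested were higher in both. They made up 66.7% of the ribosomal protein genes higher in wt and 95% of those higher in MZ, and over all genes tested these shares were 62.7% and 77.7%.

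These directions hold relative to other genes, not per length. On log2(TPM + 1), tested with limma, the median of all genes fell by 0.48 between stages in wt and by 0.35 in MZ embryos, and with no scaling factor it fell by 0.19 in wt. In that TPM fit 8 ribosomal protein genes were higher, where 10.9% of all genes were, and 20 lower, where 48.8% were, in wt. In MZ 3 were higher, where 11.3% of all genes were, and 11 lower, where 40.7% were. Of the genes called higher on counts, 29 of 57 in wt and 20 of 40 in MZ had TPM values below 0, and 4 of those in wt and 0 in MZ were called lower in TPM. Measured against the median of all genes, however, the median of the 78 genes stood 0.39 (wt) and 0.26 (MZ) above it in TPM and 0.52 and 0.34 above it in the TMM fit. Over all settings tried, 66 to 71 of the 78 genes in wt and 67 to 73 in MZ lay above the all-gene median.

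**Figure D2:**
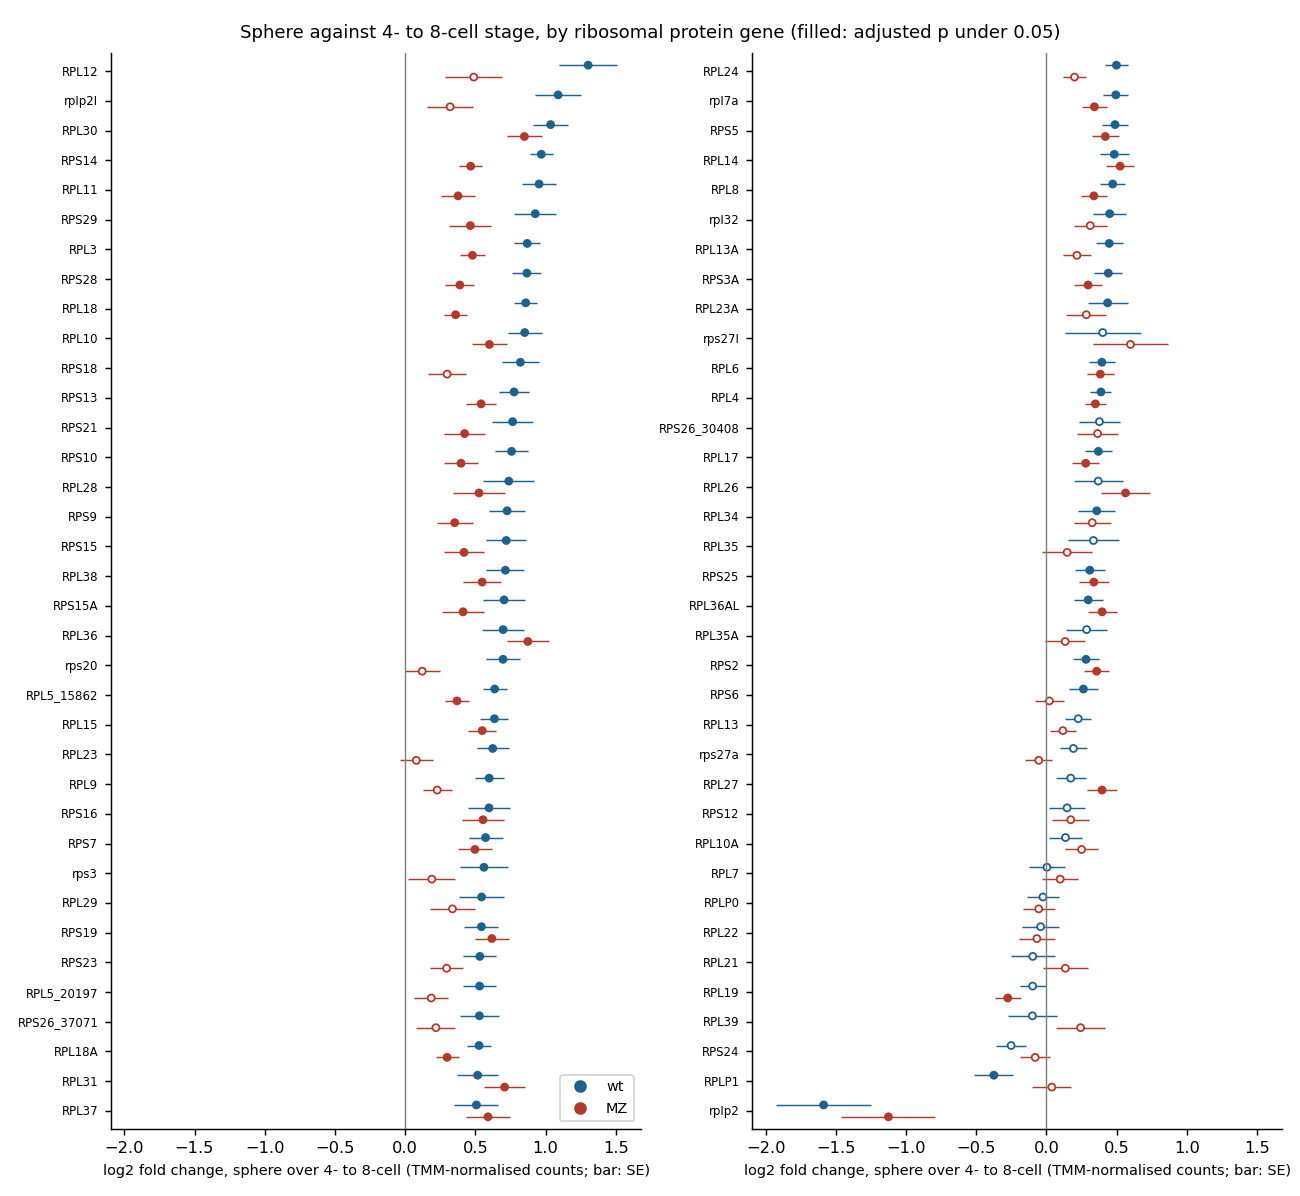
Log2 fold change of sphere over 4- to 8-cell embryos for 72 of the 78 ribosomal protein genes in wt (blue) and MZ (red), ordered by the wt value, with bars of 1 SE; filled symbols have an adjusted p under 0.05 (edgeR, TMM-normalised counts). Most genes lie to the right of 0 and rplp2 lies far to the left in both genotypes; on TPM, 20 genes in wt and 11 in MZ were called lower.

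The largest rise in wt was that of RPL12, which binds the ribosomal RNA where elongation factors dock. It was at 259, 213 and 194 CPM in wt 4- to 8-cell and at 434, 638 and 570.3 CPM in wt sphere libraries, for a log2 fold change of 1.30 (SE 0.21, adjusted p = 0.000268). Every sphere library lay above every 4- to 8-cell library in CPM and in TPM. In MZ embryos it went from 229, 133 and 212 CPM to 232, 303 and 270.3 CPM, with a log2 fold change of 0.49 (SE 0.20, adjusted p = 0.078) that did not pass the test, although its sphere libraries were above its 4- to 8-cell libraries in CPM.

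RPL30, whose yeast protein regulates the splicing of its own transcript, rose in both genotypes. It stood at 37.6, 34.9 and 28.0 CPM in wt 4- to 8-cell and at 64.7, 72.1 and 69.4 CPM in wt sphere libraries. The log2 fold change was 1.04 (SE 0.13, adjusted p = 3.75e-05) in wt and 0.85 (SE 0.13, adjusted p = 0.000262) in MZ. Its groups did not overlap in CPM or in TPM in either genotype.

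RPS14, a small subunit protein whose loss in humans marks the 5q- syndrome, rose from 109.7 ± 7.07 to 215 ± 5.75 CPM in wt (SD, n = 3), for a log2 fold change of 0.97 (SE 0.08, adjusted p = 3.04e-06), and from 111 ± 9.21 to 153 ± 8.36 CPM in MZ, for a log2 fold change of 0.47 (SE 0.08, adjusted p = 0.000946). RPL11, which together with RPL5 carries the 5S ribosomal RNA, rose by 0.95 (SE 0.12) in wt and 0.38 (SE 0.12) in MZ. RPS29, a zinc-binding protein of the small subunit, rose by 0.93 (SE 0.15) and 0.46 (SE 0.15). In MZ the calls of RPL11 and RPS29 were both lost without 4- to 8-cell replicate 2 or 3 or sphere replicate 2 or 3, with adjusted p of up to 0.0835 and 0.108. RPL12, RPL30, RPS14 and RPL11 were also called higher in wt on log2(TPM + 1), with values of 0.68, 0.43, 0.35 and 0.34, while RPS29 was not (0.27, adjusted p = 0.159). In MZ none of RPS14, RPL11 and RPS29 was called on that scale, with values of 0.04, -0.05 and 0.03.

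In MZ embryos the largest rise was that of RPL36, a large subunit protein, from 17.7, 17.0 and 16.4 CPM to 26.8, 35.0 and 31.6 CPM. Its log2 fold change was 0.87 (SE 0.15, adjusted p = 0.000722), and in wt it was 0.70 (SE 0.15, adjusted p = 0.00209). RPL31, at the exit of the peptide tunnel, rose by 0.71 (SE 0.14) in MZ, RPS19, the gene most often mutated in human Diamond-Blackfan anaemia, by 0.62 (SE 0.12), RPL10, the protein that joins the large subunit late in its assembly in yeast, by 0.60 (SE 0.12) and RPL37 by 0.59 (SE 0.16). All of these were called higher in wt as well, RPL37 not without wt 4- to 8-cell replicate 3 or wt sphere replicate 2 or 3 (adjusted p up to 0.0721). Of these 5 genes, RPL31, RPS19, RPL10 and RPL37 were no longer called in MZ on log2(TPM + 1). In wt none of the 5 genes was called on that scale, and RPL31, RPS19 and RPL37 had values below 0, at -0.01, -0.10 and -0.10.

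Of the 4 genes of the stalk, 1 was higher and 2 were lower at the sphere stage in wt, and 0 were higher and 1 lower in MZ. Its proteins form a flexible arm that recruits elongation factors, with RPLP0 as its base and P1 and P2 proteins along it. RPLP0 was at 221 ± 30.6 CPM in wt 4- to 8-cell and 217 ± 14.6 CPM in wt sphere embryos (SD, n = 3). In MZ embryos it was at 248 ± 18.0 and 238 ± 24.7 CPM, and the groups overlapped in both genotypes. In TPM its sphere libraries all lay below its 4- to 8-cell libraries in both genotypes. It went from 398 ± 53.9 to 256 ± 7.24 TPM in wt and from 434 ± 13.9 to 311 ± 28.3 TPM in MZ. RPLP1 fell in wt from 89.3, 94.5 and 81.3 CPM to 75.3, 66.9 and 62.4 CPM, by 0.37 on the log2 scale (SE 0.14, adjusted p = 0.0431). That call was lost with 7 of the 12 libraries left out, namely wt 4- to 8-cell replicate 1 (adjusted p = 0.0884) or 2 (0.126), wt sphere replicate 2 (0.0945) or 3 (0.128), MZ 4- to 8-cell replicate 2 (0.0546) and MZ sphere replicate 2 (0.0572) or 3 (0.0676). DESeq2, its size factors in edgeR and a mean count above 50 each lost the call too, and it was kept in 14 of 24 alternatives.

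In wt embryos the P2 copies moved in opposite directions. The rplp2 transcript was at 22.3, 21.8 and 22.0 CPM in wt 4- to 8-cell and at 10.6, 4.08 and 7.32 CPM in wt sphere libraries, a fall by 1.59 on the log2 scale (SE 0.34, adjusted p = 0.00213). The rplp2l transcript went from 40.6, 32.7 and 32.4 CPM to 88.8, 73.3 and 62.8 CPM, for a log2 fold change of 1.09 (SE 0.16, adjusted p = 0.000188). Neither pair of groups overlapped, and both calls were kept in all 24 alternatives, TPM included.

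In MZ embryos rplp2 fell from 25.6, 20.1 and 16.1 CPM to 6.78, 8.24 and 13.2 CPM, by 1.12 on the log2 scale (SE 0.33, adjusted p = 0.0191). Its groups did not overlap, and the call was lost without MZ 4- to 8-cell replicate 1 (adjusted p = 0.0716) or MZ sphere replicate 1 (0.0677) or 2 (0.076). The rplp2l transcript was at 44.3, 32.8 and 40.6 CPM and then at 46.1, 55.7 and 45.1 CPM, with a log2 fold change of 0.32 (SE 0.16, adjusted p = 0.143). In CPM the MZ sphere libraries of rplp2l were all above the MZ 4- to 8-cell libraries, by a margin that did not pass the test. In TPM these groups overlapped, with means of 227 at the 4- to 8-cell and 209 at the sphere stage.

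Besides rplp2, MZ embryos had lower RPL19, a large subunit protein that reaches across to the small subunit, at the sphere stage. RPL19 went from 165, 152 and 157 CPM to 129.8, 134 and 128 CPM, a fall by 0.28 on the log2 scale (SE 0.09, adjusted p = 0.0344), and in wt it changed by -0.10 (SE 0.09, adjusted p = 0.409). Its call in MZ was lost when any MZ library was left out, with adjusted p of 0.103, 0.0507 and 0.0707 without 4- to 8-cell replicates 1, 2 and 3 and 0.0781, 0.0731 and 0.0959 without sphere replicates 1, 2 and 3. It was also lost with DESeq2, with DESeq2 size factors in edgeR and with a mean count above 50, and was kept in 14 of 24 alternatives.

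**Figure D3:**
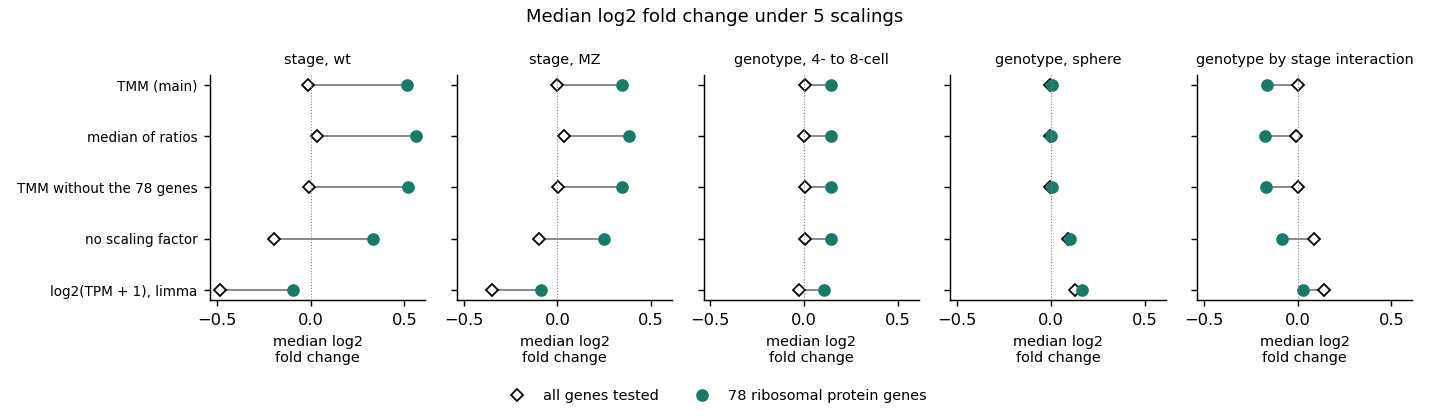
Median log2 fold change of the 78 ribosomal protein genes (filled circles) and of all genes tested (open diamonds) in the 5 comparisons, under 4 scalings of the counts in edgeR and on log2(TPM + 1) in limma. Between stages the 78 genes lie 0.34 to 0.53 above the other genes in counts and 0.26 to 0.39 above them in TPM, while the position of both relative to 0 moves with the scaling and in TPM both medians are below 0.

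The question the study put to these embryos was what the loss of smchd1 changes. At the 4- to 8-cell stage, where the 6 libraries of that stage were fitted alone, RPS15A was the single ribosomal protein gene called higher in MZ, in a comparison where 1.33% of all genes tested were higher, and none was lower, where 1.69% were lower. At an unadjusted p under 0.05, 15 were higher, where 10.7% of all genes were, and 0 lower, where 11.3% were. DESeq2 called 5 higher, where it called 5.75% of all genes higher, and 0 lower, where it called 6.34% lower. Fitted values were above 0 for 63 of the 78 genes and for 8047 of all 15937 genes tested. The median log2 fold change of the 78 genes was 0.14, against 0.00 for all genes. The median stayed between 0.09 and 0.18 over all settings tried, and 75 of the 78 values were within 0.5 of 0.

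The 3 MZ libraries all lay above the 3 wt libraries in CPM for 21 of the 78 genes, where 15% of all genes tested did so, and all below them for 0, where 14% of all genes did. By TPM these counts were 17 genes against 12% of all genes and 1 gene against 15.1%. The ratio of the MZ to the wt mean of the summed level was 1.06 by TPM and 1.08 by CPM. The wt and MZ ranges of the sum did not overlap in TPM or in CPM with no scaling factor, and overlapped in TMM-normalised CPM. With no scaling factor the wt sums were 6352 to 7184 CPM and the MZ sums 7230 to 7747 CPM. Clutch or batch and genotype cannot be told apart, since the labels tie no library to a clutch.

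RPS15A, a protein of the small subunit body, was at 28.8, 26.7 and 23.1 CPM in wt and at 43.3, 49.7 and 45.2 CPM in MZ 4- to 8-cell libraries. Every MZ library was above every wt library. The log2 fold change was 0.81 (SE 0.12, adjusted p = 0.0274), and it was 0.73 to 0.88 over the 17 alternatives. The call was lost without wt replicate 2 (adjusted p = 0.0704) or 3 (0.0539) and without MZ replicate 1 (0.0666), 2 (0.0809) or 3 (0.0832). It was also lost with the replicate number as a block, and was kept in 11 of 17 alternatives.

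The same gene was also above wt in every MZ library at the sphere stage, at 40.8, 51.7 and 35.6 CPM in wt and 56.0, 69.0 and 58.8 CPM in MZ. That difference, 0.51 on the log2 scale (SE 0.17, adjusted p = 0.0957), did not pass the test. RPS15A was 1 of 8 genes whose MZ libraries lay above the wt libraries at both stages in CPM, where 4.41% of all genes tested at both stages did so. The others included RPL7, RPL26, RPL36AL, RPS2, RPS19 and rps27l, named here after their values were seen, and none of these was called at either stage by the edgeR test.

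At the sphere stage no ribosomal protein gene was called higher in MZ, where 3.71% of all genes tested were higher, and 4 were called lower, where 4.07% were lower. At an unadjusted p under 0.05, 8 were higher, where 13.8% of all genes were, and 14 lower, where 14.9% were. DESeq2 called 1 higher, where it called 7.82% of all genes higher, and 8 lower, where it called 8.89% lower. The values were split about 0, with 40 genes above and 38 below and a median log2 fold change of 0.00, also 0.00 for all genes. MZ libraries lay above wt libraries in CPM for 12 of the 78 genes, where 17.8% of all genes did so, and below them for 16, where 16.9% did. In TPM these counts were 25 and 8, where 22.3% and 10.2% of all genes did so, and the median of all genes was 0.13 higher in MZ in that unit. The ratio of the MZ to the wt mean of the summed level was 1.05 by TPM and 0.941 by TMM-normalised CPM, and the groups overlapped in both units. With no scaling factor the mean sums were 8619 CPM in MZ and 8649 CPM in wt, and these groups overlapped too.

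The 4 genes lower in MZ were RPL12, RPS14, RPL18 and rps20. RPL12 was at 434, 638 and 570.3 CPM in wt and at 232, 303 and 270.3 CPM in MZ sphere libraries, for a log2 fold change of -1.04 (SE 0.16, adjusted p = 0.0143). The groups did not overlap in CPM or in TPM, and on log2(TPM + 1) the call was kept at -0.87 (adjusted p = 0.0436). The call was kept in 16 of 18 alternatives and lost without MZ sphere replicate 2 (adjusted p = 0.0638) or 3 (0.0663).

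RPS14 was at 209.8, 221 and 213 CPM in wt and at 149, 163 and 149 CPM in MZ sphere libraries, for a log2 fold change of -0.50 (SE 0.09, adjusted p = 0.0234). RPL18, a large subunit protein, was at 176, 174 and 170.4 CPM in wt and at 120.2, 133 and 123 CPM in MZ, for a log2 fold change of -0.48 (SE 0.09, adjusted p = 0.0266). The wt and MZ libraries of both genes were separate in CPM and in TPM. On log2(TPM + 1) neither was called, at -0.33 (adjusted p = 0.109) and -0.32 (adjusted p = 0.113).

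The fourth gene, rps20, a protein of the small subunit head, was at 172, 151 and 175 CPM in wt and at 118, 132 and 122 CPM in MZ sphere libraries, for a log2 fold change of -0.43 (SE 0.11, adjusted p = 0.0484). Its groups were apart in CPM and overlapped in TPM. The 3 weaker calls depended on single libraries: RPS14 was lost without wt sphere replicate 1 (adjusted p = 0.0538) and MZ sphere replicate 2 (0.108) or 3 (0.124), RPL18 without wt sphere replicate 1 (0.0643) and MZ sphere replicate 1 (0.0537), 2 (0.117) or 3 (0.131), and rps20 without wt sphere replicate 1 (0.105) or 3 (0.0793) and MZ sphere replicate 1 (0.096), 2 (0.161) or 3 (0.184). Of 18 alternatives RPS14 was kept in 12, RPL18 in 11 and rps20 in 6. The rps20 call was also lost with no scaling factor, no filter, a mean count above 50, the replicate number as a block and on TPM. Without wt sphere replicate 1, 2 and 3, the ribosomal protein genes called were 1, 7 and 4, and all genes called were 427, 1170 and 1141. Without MZ sphere replicate 1, 2 and 3 they were 2, 0 and 0, and 1250, 84 and 108 over all genes. The 7 called without wt sphere replicate 2 were 3 higher and 4 lower in MZ. That fit called 565 of 16237 genes higher and 605 lower. With all 6 libraries 4 ribosomal protein genes and 1269 genes in all were called, so calls were lost over all genes too.

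Marker genes were also compared between the sphere groups. Of the 20 blastula markers 16 had fitted values below 0 in MZ, where 8182 of all 16314 genes did, with a median of -0.25 and none called. At an unadjusted p under 0.05 by edgeR there were 4 of them, and 4682 of all genes tested. Their summed level was 1591 to 2130 TPM in wt and 1279 to 2020 TPM in MZ libraries, ranges that overlapped. The 18 maternal oocyte markers summed to 5785 to 6861 TPM in wt and 5802 to 6859 TPM in MZ sphere libraries. Of these markers 2, gdf3 and DDX4, were lower in MZ and 0 higher, where 4.07% and 3.71% of all genes tested were. The part of these marker levels in the ribosomal protein values was not tested.

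**Figure D4:**
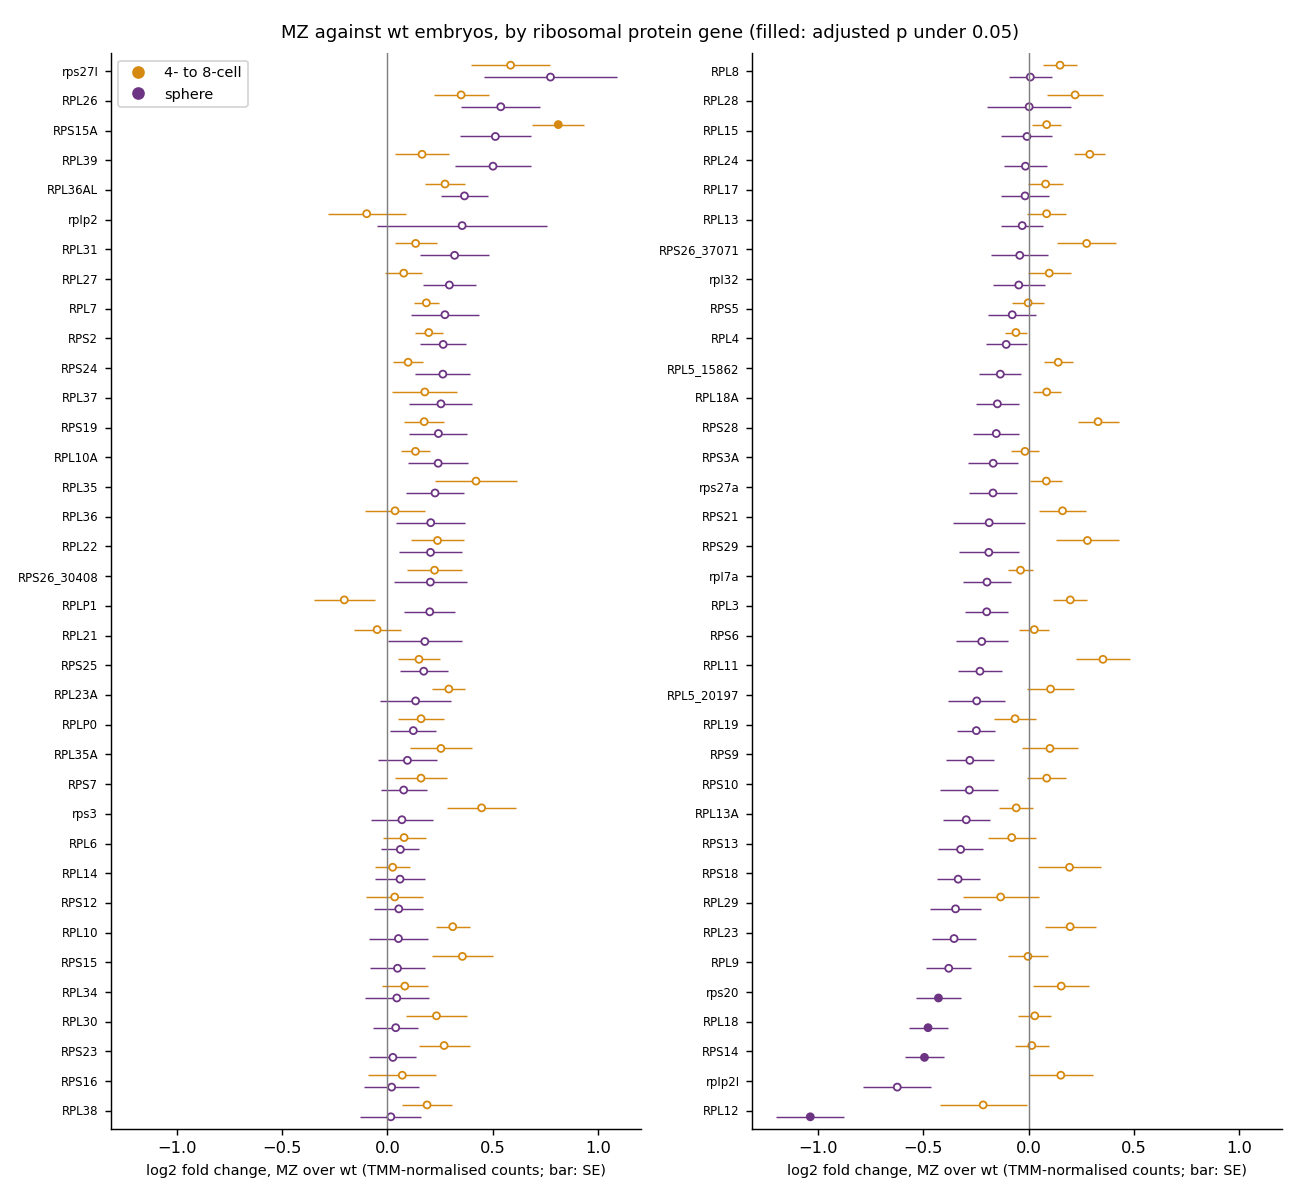
Log2 fold change of MZ over wt embryos for 72 of the 78 ribosomal protein genes at the 4- to 8-cell (orange) and the sphere stage (purple), ordered by the sphere value, with bars of 1 SE; filled symbols have an adjusted p under 0.05 (edgeR, 6 libraries of each stage). RPS15A is filled at the earlier stage and RPL12, RPS14, RPL18 and rps20 at the later one, and most 4- to 8-cell values lie to the right of 0.

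Whether the stage change differed between genotypes was tested as a genotype by stage interaction over the 12 libraries, which share all samples with the comparisons above. RPL18 was called, with a smaller rise in MZ than in wt, in a comparison where 0.874% of all genes tested were lower, and no gene was called higher, where 1.1% were. That single call in 78 is a share close to the background. At an unadjusted p under 0.05, 13 were lower, where 9.89% of all genes were, and 0 higher, where 10.9% were. DESeq2 called 8 lower, where it called 4.07% of all genes lower, and 0 higher, where it called 4.46% higher. The interaction value was negative for 58 of the 78 genes and for 8276 of all 16595 genes tested. Its median was -0.17 for the 78 genes, against 0.00 for all genes. On log2(TPM + 1) the median was 0.03 with 0.14 for all genes, so that it was above 0 there but below the other genes by 0.11.

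RPL18 rose in wt from 101, 93.6 and 92.1 CPM to 176, 174 and 170.4 CPM, for a log2 fold change of 0.86 (SE 0.08), and in MZ from 107, 91.4 and 95.3 CPM to 120.2, 133 and 123 CPM, for a log2 fold change of 0.36 (SE 0.08). On log2(TPM + 1) the rise in wt was 0.24 (adjusted p = 0.0269), and the MZ value was -0.07 (adjusted p = 0.511). The difference on counts was -0.50 (SE 0.11, adjusted p = 0.0492). It passed the threshold in 7 of 24 alternatives, with adjusted p from 0.00142 to 0.172, and in 1 of the 12 fits that left out a library, the one without wt sphere replicate 3 (adjusted p = 0.039). Without any other single library the adjusted p was 0.0569 to 0.128, and the value kept its sign in all 24.

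RPS14 gave nearly the same interaction value, -0.50 (SE 0.12, adjusted p = 0.052), RPL12 gave -0.81 (SE 0.29, adjusted p = 0.142) and rplp2l -0.77 (SE 0.23, adjusted p = 0.0988). RPL11 was the single gene whose MZ libraries in CPM lay above wt at the 4- to 8-cell and below wt at the sphere stage, where 1.2% of all genes tested at both stages did so. It was at 89.9, 72.4 and 63.2 CPM in wt and 100.4, 94.4 and 93.9 CPM in MZ 4- to 8-cell libraries, and at 148, 158 and 131 CPM in wt and 119.7, 129.7 and 125 CPM in MZ sphere libraries. Its interaction value of -0.58 (SE 0.17, adjusted p = 0.0916) did not pass the test.

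The paralogue pairs show how the output of a family is divided between its copies. The P2, RPL5 and RPS26 families are given here, and reads that fit both copies were shared between them by probability, so each share is an estimate. By TPM, rplp2 gave 38.3, 42.9 and 43.4% of the P2 transcripts in wt 4- to 8-cell and 11.8, 5.89 and 11.6% in wt sphere libraries. In MZ it gave 39.5, 40.9 and 30.9% at the 4- to 8-cell and 14.2, 14.3 and 24.8% at the sphere stage. The stages were separate in both genotypes, and every MZ sphere library was above every wt sphere library. The share itself was not tested. At the sphere stage rplp2 was at 42.7, 16.9 and 34.9 TPM in wt and 31.4, 38.4 and 68.3 TPM in MZ, which overlapped. The rplp2l transcript was at 320, 269 and 266 TPM in wt and 190, 231 and 207 TPM in MZ. All its MZ libraries thus lay below wt, as did those of 10.2% of all genes in TPM.

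In the other families the group means lay closer together. RPL5_20197 made up 15.1 ± 0.427% of the RPL5 transcripts in wt 4- to 8-cell and 13.2 ± 0.954% in MZ sphere embryos, the highest and the lowest group mean (SD, n = 3). RPS26_30408 made up 22.6 to 25.4% of the RPS26 transcripts by group mean.

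A gene of low level, rps27l, encodes a relative of RPS27 that p53 activates in human cells. It was at 8.23, 6.65 and 6.39 CPM in wt and 10.8, 10.2 and 11.1 CPM in MZ 4- to 8-cell libraries, and at 12.9, 8.94 and 6.27 CPM in wt and 20.7, 14.3 and 13.5 CPM in MZ sphere libraries. MZ libraries were above wt libraries at both stages, with log2 fold changes of 0.58 (SE 0.19, adjusted p = 0.137) and 0.77 (SE 0.32, adjusted p = 0.155). On log2(TPM + 1) the 4- to 8-cell value was 0.54 and was called (adjusted p = 0.0466).

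**Figure D5:**
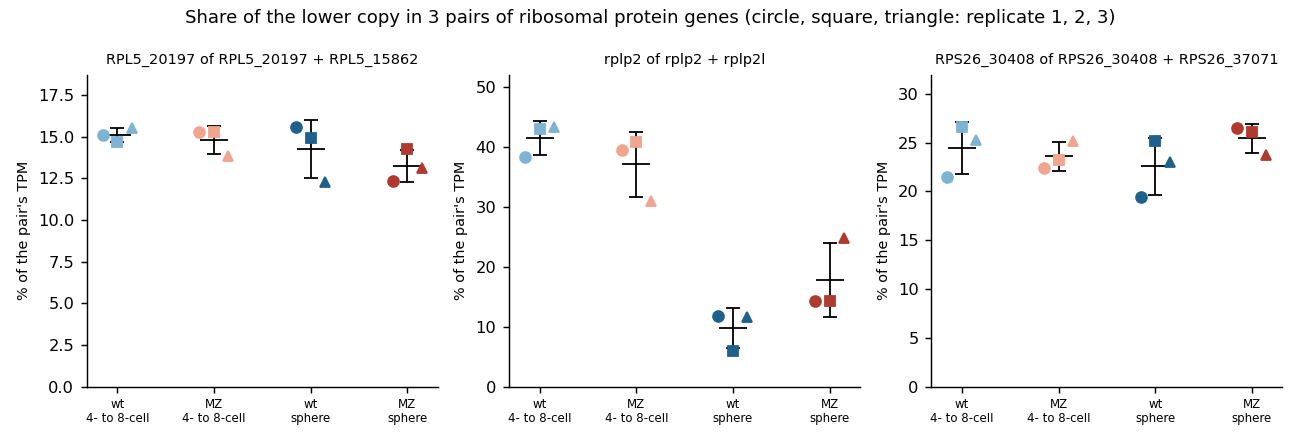
Share of the less abundant copy in the summed TPM of 3 pairs of ribosomal protein genes, in each library (symbols) with group mean and SD (n = 3). The rplp2 share falls from 30.9 to 43.4% at the 4- to 8-cell to 5.89 to 24.8% at the sphere stage, and the other shares stay between 12.3 and 26.7% in every library.

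Gene size and level were set against the changes. Across the 78 genes, as a description of points that share their libraries, the Spearman correlation of the wt stage change was -0.13 with log2 effective length and 0.07 with log2 mean TPM. For the MZ stage change these were -0.05 and -0.10. For the genotype difference the Spearman correlations with length were -0.26 at the 4- to 8-cell and -0.15 at the sphere stage, and those with level were -0.23 and -0.36. The Pearson correlations of the genotype difference with level were -0.26 and -0.09. Those of the stage change with level were 0.28 in wt and 0.42 in MZ, so in MZ the sign differed from the Spearman value. All genes tested with an effective length up to 500 bases had a median stage change of 0.44 in wt and 0.28 in MZ, against 0.54 and 0.34 for the 41 ribosomal protein genes of that length. For lengths of 500 to 1000 bases the medians of all genes were -0.15 and -0.07, against 0.49 and 0.34 for 34 ribosomal protein genes. For the interaction, all genes of these lengths, in order, had medians of -0.12 and 0.06, against -0.19 and -0.14 for ribosomal protein genes. For genotype these were 0.07 and 0.02 against 0.18 and 0.09 at the 4- to 8-cell stage. At the sphere stage they were -0.01 and 0.07 against 0.03 and -0.02.

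Genes that work with the ribosome gave the setting for these changes. For every list below the background between stages was the same. Of all genes tested, 24.7% were higher and 23.6% lower in wt, and 20% were higher and 19.6% lower in MZ. The lists can share genes, so their counts are not separate results. The value of eef1a1l1, for instance, was the highest in both the TOP and the elongation list. Of 20 other genes known from mammals to carry a TOP tract, 13 were higher and 0 lower in wt sphere embryos, with no further gene at an unadjusted p under 0.05 and a median log2 fold change of 0.67, and 10 were higher and 1 lower in MZ. The lowest adjusted p among them belonged to eef1a1l1, the elongation factor that brings in tRNA, at 1.99 (SE 0.12) in wt and 1.66 (SE 0.12) in MZ. The gene eef2b, whose protein moves the ribosome along, was at 0.91 (SE 0.11) in wt and 0.33 (SE 0.11) in MZ. At the sphere stage eef2b was lower in MZ than in wt by 0.68 on the log2 scale (log2 fold change -0.68, SE 0.13) and the poly-A binding protein gene pabpc1a by 0.53 (-0.53, SE 0.11). Values were below 0 there for 15 of the 20 genes, and for 8182 of all 16314 genes tested.

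Translation initiation factors gave 14 higher and 2 lower of 26 in wt and 12 higher and 2 lower in MZ between stages, with eif4a1a, the helicase of the cap complex, at 0.81 (SE 0.09) and 0.73 (SE 0.09). Elongation and release factors gave 6 higher and 0 lower of 12 in wt, with 6 at an unadjusted p under 0.05 in all, and 4 higher and 1 lower in MZ. Of 54 ribosome biogenesis factors 21 were higher and 6 lower in wt and 14 higher and 4 lower in MZ.

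The RNA polymerase I machinery, which makes ribosomal RNA, went the other way, with 1 higher and 8 lower of 13 in wt and 3 higher and 6 lower in MZ. Its leading genes were ubtfl, a relative of the rDNA binding factor UBTF, at -1.09 (SE 0.09) in wt and -1.04 (SE 0.09) in MZ, and the subunit gene POLR1H at -2.11 (SE 0.22) and -1.98 (SE 0.22). Regulators of the mTOR pathway and of TOP mRNAs were divided, with 6 higher and 6 lower of 19 in wt and 4 higher and 5 lower in MZ, and tia1, which binds TOP mRNAs in mammals, rose by 0.84 (SE 0.07) and 0.48 (SE 0.07). Poly-A tail factors gave 10 higher and 12 lower of 30 in wt and 7 higher and 9 lower in MZ, with TENT2, a poly-A polymerase of the cytoplasm, lower by 1.80 on the log2 scale (log2 fold change -1.80, SE 0.10) in wt and -1.34 (SE 0.10) in MZ.

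Between genotypes few of these genes were called. Of all genes tested, 1.33% were higher in MZ and 1.69% lower at the 4- to 8-cell stage, and 3.71% and 4.07% at the sphere stage. Higher and lower at the sphere stage were 3 and 0 of 54 biogenesis factors, 0 and 2 of 20 TOP genes and 1 and 3 of 30 poly-A tail factors. For initiation factors these counts were 1 and 1 of 26, for elongation and release factors 0 and 1 of 11. They were 1 and 0 of 13 for the RNA polymerase I machinery and 0 and 0 of 19 for the mTOR list. At the 4- to 8-cell stage NIP7 (0.81, SE 0.13) and rrp1 (0.41, SE 0.07), both biogenesis factors, and the release factor gene etf1a (4.98, SE 0.67) were higher in MZ. The list that holds etf1a had 10 of 13 genes above 1 TPM in each wt 4- to 8-cell library and 11 or 12 in MZ. The level of etf1a itself is not given here. EIF4EBP2, a translation repressor under mTOR, was lower in MZ (-0.29, SE 0.06). At the sphere stage GTPBP4 (0.71, SE 0.11) and IMP4 (0.81, SE 0.13) of the biogenesis list, POLR1A (0.74, SE 0.16), the catalytic subunit of RNA polymerase I, and eif1axa (0.50, SE 0.11) were higher, and EIF5 was lower (SE 0.17, adjusted p = 0.018 by edgeR). Of 7 genes for ribosomal proteins or their relatives that the naming rule missed, rps27.2 was lower in MZ at the sphere stage (-0.62, SE 0.11, adjusted p = 0.0188), and between stages 4 were higher and 1 lower in wt and 2 higher and 1 lower in MZ.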

How the data were processed

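Poly-A enriched, paired-end RNA-seq libraries of 12 pools of 30 to 50 embryos were analysed from 1 table per library. The authors aligned reads to danRer10 with the Ensembl release 89 annotation, and Bowtie and RSEM are named in the submitters' processing notes without a version. The deposited expected counts are RSEM estimates that share reads between similar genes by probability, the deposited TPM are scaled per effective length to the same total in each library, and the deposited FPKM values were not used. The authors' effective length, in bases, was used as deposited. The ribosomal RNA gene kept its part of the TPM total, with a mean of 9341 TPM in the sphere libraries. Gene symbols were matched for 25752 of 31462 identifiers (81.9%).

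Expected counts were rounded, 1 ribosomal RNA gene was removed, and genes with a mean TMM-normalised count above 10 were tested with edgeR 4.0.16 (quasi-likelihood, R 4.3.3), with Benjamini-Hochberg adjustment over all genes tested. Genotypes were compared within each stage (6 libraries), and stages within each genotype and the interaction in 1 fit of 12 libraries. SE is the log2 fold change divided by the square root of F. TPM were tested as log2(TPM + 1) with limma 3.58.1, which understates changes of low genes. Libraries held 7829742 to 23681822 counts, and a gene with few counts is measured with less precision. No pair of replicates agreed within sampling noise. Figures were drawn with matplotlib 3.10.9. The fits were tested on simulated data.

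Alternatives were DESeq2 1.42.0, its size factors in edgeR, no scaling, scaling without the ribosomal protein genes, no filter, a mean count above 50, unrounded counts, TPM with pseudocounts of 1 and 0.1, a replicate block, other sets of libraries in the fit, the ribosomal RNA gene kept and each library left out. Leaving out wt sphere replicate 1 together with MZ sphere replicate 1 was chosen after seeing the data. The genes and the other gene lists were chosen with earlier results of these data known. Named were the 5 genes with the highest and the 5 with the lowest mean TPM, up to 6 called genes per direction and comparison, all paralogue pairs, genes past the interaction test and up to 2 called genes of each other list. RPL7, RPL26, RPL36AL, RPS2, RPL11 and, at the genotype comparisons, RPS19 were named after their values were seen, for the order of their libraries. Some of the 78 genes are counted in the sums, medians and counts but are not reported here by name or drawn in the figures.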

Additional observations from a re-analysis of the deposited data

Results flagged for a closer look

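The stage change of RPL18 differed between the genotypes by a test of the difference itself. On the log2 scale the interaction was -0.50 (SE 0.11, edgeR adjusted p = 0.0492), with a value of 0.86 in wt and 0.36 in MZ embryos on counts and of 0.24 and -0.07 on log2(TPM + 1). The interaction passed the threshold in 7 of 24 alternatives, and was lost in 11 of the 12 fits that left out a library, with the replicate block, with no scaling, with no filter, on TPM and without both sphere replicates numbered 1. It was the single call among 78 genes, a share of 1.28% against 0.874% of all genes tested. All 3 wt sphere libraries lay above all 3 MZ sphere libraries, and the 4- to 8-cell libraries of the genotypes overlapped.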

How the results depend on the processing

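The counts of called genes depended on the tool, for the ribosomal protein genes and over all genes tested. DESeq2 called 5 at the 4- to 8-cell stage, 9 at the sphere stage and 8 for the interaction, against 1, 4 and 1 by edgeR. On TPM, with a pseudocount of 1 or 0.1 alike, limma called 2 at each stage between genotypes, 28 between stages in wt, 14 in MZ and 0 for the interaction. With a pseudocount of 1 it called 527 of all genes at the 4- to 8-cell and 921 at the sphere stage. Between stages it called 9906 in wt and 8636 in MZ, and for the interaction 385. The interaction gave 0 with no scaling or no filter and 2 with a mean count above 50, where 317, 250 and 324 of all genes were called. Fitting all 12 libraries together gave 8 between genotypes at sphere, where 2591 of 16595 genes were called. These 8 were 2 higher and 6 lower in MZ, where 1306 of all genes were higher and 1285 lower. Leaving out 1 library gave 0 to 1 at 4 to 8 cells, 0 to 7 at the sphere stage, 50 to 59 between stages in wt, 23 to 44 in MZ and 0 to 2 for the interaction. Over all genes these fits called 125 to 333 at 4 to 8 cells and 84 to 1250 at the sphere stage. Between stages they called 7084 to 8071 in wt and 4889 to 6871 in MZ, and for the interaction 26 to 806. Without both sphere replicates numbered 1 there was 1 ribosomal protein gene at the sphere stage and 0 for the interaction, where 442 and 317 of all genes were called. The causes were not tested.

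In TPM, 29 of the 57 genes called higher at the sphere stage on counts in wt and 20 of the 40 in MZ had values below 0. With pseudocounts of 1 and 0.1, those named for a stage comparison were RPL31 (-0.00689 and -0.00703), RPL37 (-0.0963 and -0.0969), RPS19 (-0.102 and -0.102), RPL5_20197 (-0.0801 and -0.0813), RPS26_37071 (-0.0864 and -0.0868) and rpl32 (-0.181 and -0.182) in wt, and RPL18 (-0.0699 and -0.0701), RPL11 (-0.0542 and -0.0544) and RPL5_15862 (-0.0560 and -0.0561) in MZ. RPS12 in wt (0.15 on counts, edgeR adjusted p = 0.379) and RPLP1 in MZ (0.04, adjusted p = 0.851) were not called on counts and were called lower in TPM, at -0.489 and -0.489 and at -0.392 and -0.394. The ratio of the summed level was 1.08 by both forms of CPM between genotypes at the 4- to 8-cell stage, with 1.03 to 1.08 in TPM when 1 library was left out, and 0.941 by TMM-normalised CPM at the sphere stage, with 0.995 to 1.098 in TPM when 1 library was left out. By unscaled CPM the mean sums at the sphere stage were 8619 in MZ and 8649 in wt. Between stages the ratio of sums was 1.43 and 1.26 in wt and 1.24 and 1.16 in MZ by TMM-normalised and unscaled CPM. By TPM that ratio was 0.892 to 0.985 in wt and 0.899 to 0.960 in MZ when 1 library was left out.

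The labels do not say whether equal replicate numbers mark a shared batch. The correlation of the deviations was -0.059 to 0.295 for same-numbered samples and -0.226 to 0.167 for differently numbered ones. With 3 libraries in a group these values cannot decide whether the numbers pair the samples. A fit with the replicate number as a block called 0 at 4 to 8 cells, 3 at the sphere stage, 59 in wt, 40 in MZ and 0 for the interaction. Over all genes it called 66, 1248, 7877, 6491 and 226.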
